A study of Mus musculus with 9 samples.

Results

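The 10 genes described here mark cardiac fibroblasts and their activation, and they were followed across mouse hearts treated for chronic heart failure. They are Pdgfra, Tcf21, Dpt, Gsn, Pi16, Meox1, Cd248, Fap, Ddr2 and Thy1, chosen by name, and they are set here against 30142 genes that have a probe set of their own. Of these 10 genes, 9 could be read. The probe set that lists Pdgfra, the alpha receptor for platelet-derived growth factor, also lists the microRNA Mir7025, so no value is given for Pdgfra. The samples were whole hearts of immunodeficient nude mice, which lack a thymus, taken 6 weeks after treatment and measured on Affymetrix whole-transcript arrays. All had a permanently tied left anterior descending artery and were treated 3 weeks later if the ejection fraction was under 50%. The vesicle group (3 arrays) received the extracellular vesicles, small membrane particles, that 500000 cardiovascular progenitor cells release in 48 hours. The cell group (3 arrays) received 500000 of the progenitor cells, injected at 3 sites beside the infarct, and the control group (2 arrays) received alpha-MEM, a culture medium. The sham heart (1 array) had the needle passed into the muscle 3 times with no injection, and its label also says chronic heart failure, so it is not an uninjured heart. The labels give no age, no sex and no species for the progenitor cells. Sample titles put sham, control 1, vesicle 1 and cell 1 in an experiment numbered 9 and control 2, vesicles 2 and 3 and cells 2 and 3 in an experiment numbered 1. The titles also carry a VTS number, whose meaning the labels do not give: 3 on the arrays of experiment 9, 1 on control 2, vesicle 2 and cell 2, and 2 on vesicle 3 and cell 3. The arrays with VTS number 2 have no control of their own and are read against control 2. Nothing in the labels says that each array is a separate animal, so p-values measure the spread between these arrays, which may be technical.

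Cardiac fibroblasts lie between the muscle cells, build and renew the collagen matrix, and are recognised by a set of receptors, matrix proteins and transcription factors rather than by any single gene. After an infarct they divide, move into the wound and turn on genes of contraction and matrix secretion; later, many settle into a matrix-producing state inside the scar. Among the genes measured here, Tcf21 is a helix-loop-helix factor of the resting fibroblast lineage, Ddr2 a receptor tyrosine kinase that senses fibrillar collagen, and Thy1 a lipid-anchored surface glycoprotein also carried by T cells and neurons. Dpt (dermatopontin) is a small matrix protein, Gsn (gelsolin) severs actin filaments, and Pi16 is a peptidase inhibitor family protein of adventitial fibroblasts. Meox1 is a homeobox factor that is switched on in fibroblasts of the stressed heart, Cd248 (endosialin) a membrane glycoprotein of stromal cells and pericytes, and Fap a surface serine protease of activated fibroblasts.

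Levels are log2 expression values as deposited, so a difference of 1 is a doubling, and every difference below is on that scale. As a reference for background, the 95th percentile of 10553 negative control probe sets lay between 7.18 and 7.28 across arrays. Tcf21, Dpt, Gsn, Pi16, Cd248 and Ddr2 lay above it on 9 of 9 arrays and Meox1 on 7, being under it on control array 1 and cell array 1, whereas Fap and Thy1 lay under it on all 9. The differences of Fap and Thy1 are therefore between signals that do not stand clear of background. The label of the tissue was borne out by its markers: 7 of 7 measured heart muscle genes lay above the negative controls, with a mean over the list between 11.6 and 11.8 on every array. Lung epithelium genes stood apart on vesicle array 3, where their mean was 6.87 against 4.78 to 5.15 on the other 8 arrays, and the surfactant gene Sftpc read 9.75 there, 6.35 on the sham array and at most 4.52 elsewhere. In whole-heart RNA, fewer fibroblasts and less marker RNA per fibroblast cannot be told apart.

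**Figure D1:**
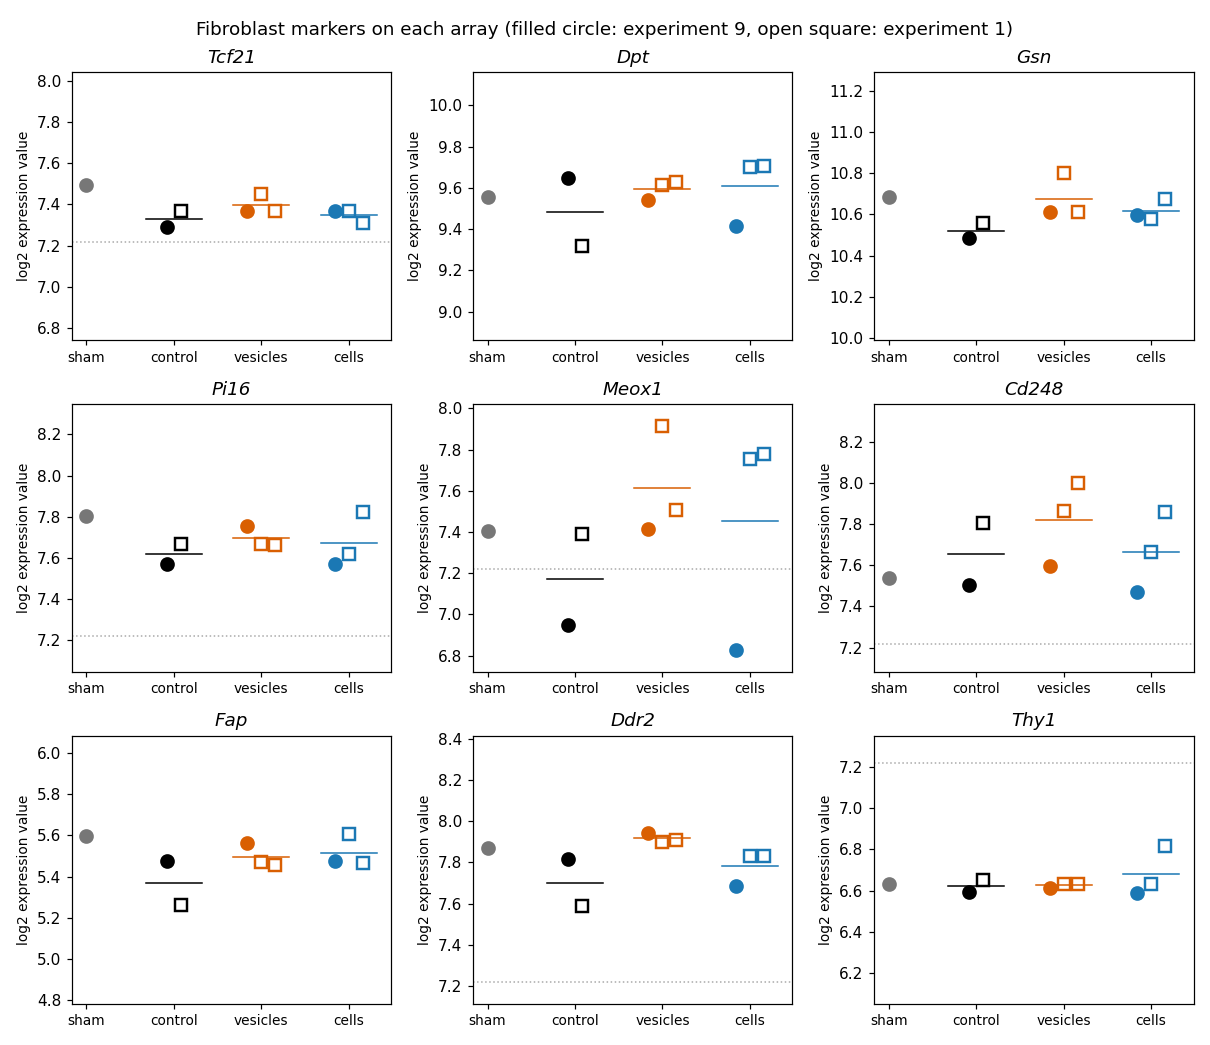
Log2 expression value (vertical axes, all spanning the same 1.3 units) of 9 fibroblast markers on 9 arrays by treatment (horizontal axes); filled circles are arrays of experiment 9, open squares those of experiment 1, short lines are group means, and the dotted line is the mean 95th percentile of negative control probe sets, 7.22. Meox1 has the widest spread, from 6.83 to 7.91, and Fap and Thy1 lie under the dotted line on every array.

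Dpt and Ddr2 had the same lowest array, control array 2, as did Fap. They also had the same reversal between experiments after cells, as did Meox1. Over the 9 arrays the Pearson correlation of Fap and Ddr2 was 0.70. That of Dpt and Ddr2 was 0.73, the highest among 36 pairs of markers. Their promoter windows are shown for that reason, taken from RefSeq on build GRCm38.p6 as 250 bases before to 50 after an annotated transcript start; windows were found for 6 of the 10 genes, and not for Meox1, Cd248, Fap and Thy1. The Dpt window is chr1:164796413-164796712 on the plus strand and the Ddr2 window chr1:170088895-170089194 on the minus strand. Capitals mark matches, on either strand, to the E-box CANNTG, the class of site that helix-loop-helix factors such as Tcf21 bind, and to the TATA motif TATAAA.
Dpt: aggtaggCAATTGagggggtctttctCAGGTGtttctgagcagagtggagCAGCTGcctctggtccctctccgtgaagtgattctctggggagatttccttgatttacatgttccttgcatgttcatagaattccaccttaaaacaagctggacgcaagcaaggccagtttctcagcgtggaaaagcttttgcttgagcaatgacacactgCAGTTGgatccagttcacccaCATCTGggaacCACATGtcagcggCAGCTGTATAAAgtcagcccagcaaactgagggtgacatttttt
Ddr2: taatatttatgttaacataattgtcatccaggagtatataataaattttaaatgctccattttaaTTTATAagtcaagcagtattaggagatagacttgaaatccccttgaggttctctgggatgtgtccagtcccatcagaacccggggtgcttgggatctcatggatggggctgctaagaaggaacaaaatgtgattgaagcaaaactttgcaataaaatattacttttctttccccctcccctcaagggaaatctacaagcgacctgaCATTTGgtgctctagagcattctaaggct

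The Dpt window held 7 E-boxes, the last of which begins at position 6 and adjoins a TATAAA match without overlap. Across 32851 RefSeq windows of the same length, 72.3% held at least 1 E-box, 0.177% held 7 or more, and 13.6% held TATAAA. The cutoff of 7 was taken from the count of Dpt itself, so its share only describes that window. Among the other markers with a window, Tcf21 held 0 E-boxes, Pi16 1, Pdgfra 2, and the 3 windows of Gsn 1, 3 and 2. The Ddr2 window held 1 E-box at position 21 and 1 TATAAA match on the opposite strand at position −185, counted from 0 at the start site. The AP-1 motif TGANTCA, found in 7.81% of windows, and the TEAD motif GGAATG, found in 14.7%, had 0 matches in both. A match describes letters in a window and not a bound site.

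Vesicles were set against medium to ask how marker levels stood 6 weeks after vesicle treatment. Fitted values were higher than control for 8 of 9 markers and for 39.6% of all genes. The median difference was 0.12 against −0.012 over all 30142 genes, and no marker passed the test. The widest fitted differences were those of Meox1 (0.35 ± 0.20, SE) and Ddr2 (0.22 ± 0.082, or 1.16-fold). In limma's fit, with the experiment as a block and Benjamini-Hochberg adjustment over all genes, adjusted p ran from 0.675 to 1 over the 9 markers. That fit called 0 of 30142 genes, or 0%, at an adjusted p under 0.05, while 1942 genes had an unadjusted p under 0.05 and least squares without moderation called 4 genes. Without control array 1 limma called 823 genes, with 0 of the 9 markers among them. For 5 markers, Gsn, Meox1, Cd248, Fap and Ddr2, every vesicle array read above the control array of its own experiment, as it did for 10.6% of all genes. For 0 of 9 markers did every vesicle array read below, against 18.3% of all genes.

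The collagen receptor Ddr2 had the lowest unadjusted p of the markers in this comparison. It read 7.81 and 7.59 on control arrays 1 and 2, 7.94, 7.90 and 7.91 on vesicle arrays 1, 2 and 3, 7.69, 7.83 and 7.83 on cell arrays 1, 2 and 3, and 7.87 on the sham array. All 3 vesicle arrays lay above both control arrays and all 3 cell arrays, the vesicle arrays being within 0.05 of each other. The share of all genes separated like this over both experiments was not counted, here or for similar orders of other genes below. Against control the fitted difference had a 95% interval of 0.011 to 0.43 with an unadjusted p of 0.0424, and it did not pass in limma after adjustment (adjusted p = 0.675). Inside the experiments it was 0.13 in experiment 9 and 0.32 in experiment 1 (limma adjusted p of that gap = 0.0735). Control array 2, the lowest of the 9, bears on the size: without it the difference was 0.067, and without control array 1 it was 0.35 (limma adjusted p = 0.0979).

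Tcf21, the lineage factor, read nearly level between treatments, close above the negative control percentile of 7.18 to 7.28. How level Tcf21 itself was is uncertain so near to background. It read 7.29 and 7.37 on control arrays 1 and 2, 7.37, 7.45 and 7.37 on vesicle arrays 1, 2 and 3, 7.37, 7.37 and 7.31 on cell arrays 1, 2 and 3, and 7.49 on the sham array. The same deposited value stood on 5 of the 9 arrays, a kind of tie that narrows the spread and that 61.1% of all genes show on 3 or more arrays. Its differences from control were 0.061 ± 0.040 after vesicles and 0.014 ± 0.040 after cells, with 95% intervals of −0.041 to 0.16 and −0.087 to 0.12.

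Meox1 covered the widest span of the markers, 1.08 units. Its values were 6.95 and 7.39 on control arrays 1 and 2, 7.41, 7.91 and 7.51 on vesicle arrays 1, 2 and 3, 6.83, 7.76 and 7.78 on cell arrays 1, 2 and 3, and 7.41 on the sham array. The vesicle arrays all lay above both control arrays, by as little as 0.02 for vesicle array 1 against control array 2, which come from different experiments. Control array 1 and cell array 1 were not above the negative controls, so the size of each Meox1 difference that uses them is uncertain and no fold is given. The vesicle difference of 0.35 had a 95% interval of −0.15 to 0.84 and was 0.46 in experiment 9 and 0.32 in experiment 1. Leaving out 1 array at a time moved it between 0.18 (without vesicle array 1) and 0.49 (without vesicle array 3).

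Gsn, the actin-severing protein, read 10.48 and 10.56 on control arrays 1 and 2, 10.61, 10.80 and 10.61 on vesicle arrays 1, 2 and 3, 10.60, 10.58 and 10.67 on cell arrays 1, 2 and 3, and 10.68 on the sham array. Both control arrays were the lowest of the 9. Without vesicle array 2, which read highest, the vesicle difference was 0.088. With all arrays the difference from control was 0.14 ± 0.064 after vesicles, 0.13 in experiment 9 and 0.15 in experiment 1, and 0.084 ± 0.064 after cells (limma adjusted p = 0.675 and 0.750). Gsn was the 1 marker for which every cell array read above the control array of its experiment, which held for 8.86% of all genes.

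Cd248, the stromal glycoprotein endosialin, read 7.50 and 7.80 on control arrays 1 and 2, 7.60, 7.86 and 7.999 on vesicle arrays 1, 2 and 3, 7.47, 7.66 and 7.86 on cell arrays 1, 2 and 3, and 7.54 on the sham array. Within each experiment the vesicle arrays were the highest, while over both experiments the groups overlapped. Its difference after vesicles was 0.12 ± 0.070, with a 95% interval of −0.063 to 0.29. Vesicle array 3, which carried the lung transcripts, held its highest value, and without that array the difference was 0.077. With the VTS number as the block in place of the experiment it was 0.073.

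Dpt and Pi16 had no steady direction after vesicles. The matrix protein Dpt read 9.65 and 9.32 on control arrays 1 and 2, 9.54, 9.62 and 9.63 on vesicle arrays 1, 2 and 3, 9.41, 9.70 and 9.71 on cell arrays 1, 2 and 3, and 9.55 on the sham array. The 2 control arrays lay 0.33 apart and enclosed all 3 vesicle arrays. The fitted difference was 0.11 ± 0.13, but −0.11 in experiment 9, 0.30 in experiment 1 and −0.17 without control array 2. Pi16 read 7.57 and 7.67 on control arrays 1 and 2, 7.75, 7.67 and 7.66 on vesicle arrays 1, 2 and 3, 7.57, 7.62 and 7.82 on cell arrays 1, 2 and 3, and 7.80 on the sham array. Its difference of 0.066 ± 0.083 came from experiment 9 (0.18), with −0.0038 in experiment 1 and −0.019 without vesicle array 1.

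The 2 markers that lay under the negative controls differed from each other. Fap, the protease of activated fibroblasts, read 5.47 and 5.26 on control arrays 1 and 2, 5.56, 5.47 and 5.45 on vesicle arrays 1, 2 and 3, 5.47, 5.61 and 5.47 on cell arrays 1, 2 and 3, and 5.60 on the sham array. Control array 2 was the lowest, and the vesicle and cell arrays overlapped. Its differences from control were 0.14 ± 0.074 after vesicles and 0.16 ± 0.074 after cells, and 0.036 and 0.055 without control array 2. Thy1 read 6.59 and 6.65 on control arrays 1 and 2, 6.61, 6.63 and 6.63 on vesicle arrays 1, 2 and 3, 6.59, 6.63 and 6.82 on cell arrays 1, 2 and 3, and 6.63 on the sham array. Cell array 3 stood alone at the top, the same value was deposited for 4 arrays, and the difference after vesicles was −0.0067 ± 0.061. Thy1 is also a T-cell gene, and 0 of 7 measured T lymphocyte genes had a mean above the negative controls in these nude mouse hearts.

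Progenitor cells were set against the same 2 control arrays, so this comparison shares them with the one of vesicles. Fitted values were higher than control for 8 of 9 markers and for 44.2% of all genes. The median was 0.084 against −0.0064 over all genes, and 0 markers passed (limma adjusted p from 0.682 to 0.965). Limma called 0 of 30142 genes, or 0%, with 2029 at an unadjusted p under 0.05, and least squares without moderation also called 0. Without control array 1 the number was 901, again with 0 markers. Meox1 stood at 0.19 ± 0.20, Fap at 0.16 ± 0.074, Dpt at 0.12 ± 0.13, Ddr2 at 0.085 ± 0.082, Thy1 at 0.046 ± 0.061, Pi16 at 0.043 ± 0.083 and Cd248 at −0.042 ± 0.070. Over the alternatives that kept all 9 markers between 6 and 9 were higher, with 6 without control array 2, without cell array 3 or when the sham array joined the controls. For 0 markers did every cell array read below its control, against 17.5% of all genes.

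The arrays of the 2 experiments went apart after cells. Cell array 1, in experiment 9, read above its control for 3 of 9 markers, with a mean difference over the markers of −0.037, and it held the lowest value of the 9 arrays for Meox1, Cd248 and Thy1. In experiment 1, cell array 2 read above its control for 5 markers (mean 0.13) and cell array 3 for 8 (mean 0.18). By the same measure vesicle arrays 1, 2 and 3 read above their controls for 8, 7 and 6 markers, with means of 0.12, 0.19 and 0.13. For single arrays, the share of all genes above the same control array was not counted. Dpt after cells was −0.23 in experiment 9 and 0.39 in experiment 1, Ddr2 −0.13 and 0.24, and Meox1 −0.12 and 0.38. Limma's test of the treatment difference between the experiments did not pass for any of these 3 genes (adjusted p = 0.0802, 0.0802 and 0.605); it rests on 2 residual degrees of freedom. With cell array 1 left out the cell difference of Meox1 was 0.42, and without control array 2 those of Dpt and Ddr2 were −0.16 and −0.067.

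**Figure D2:**
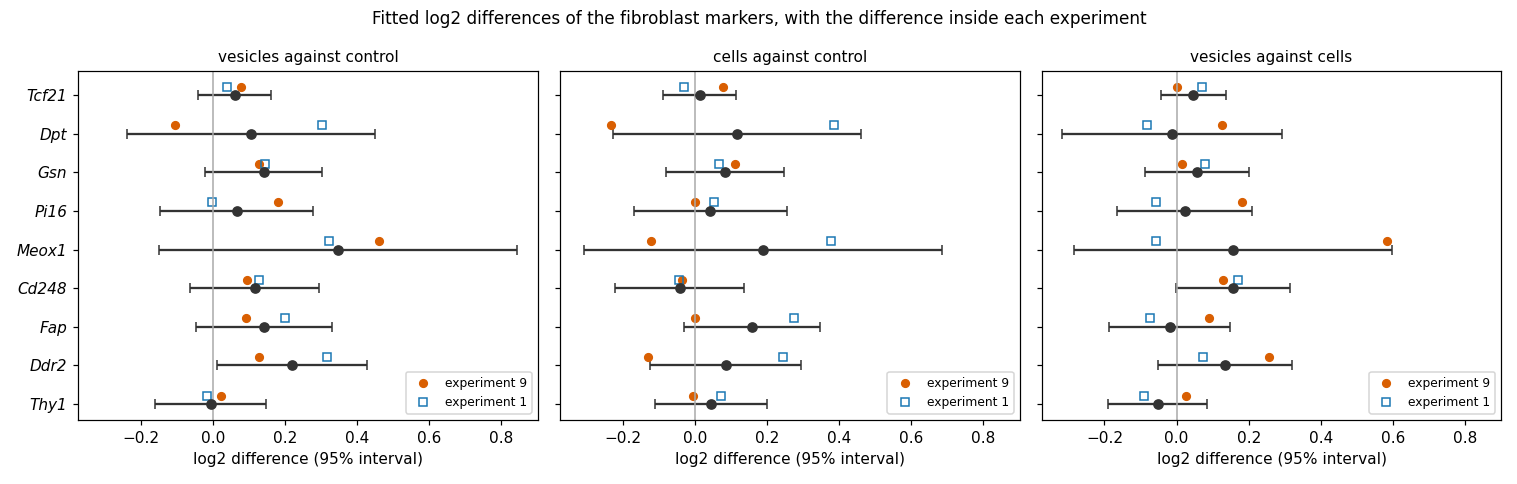
Fitted log2 differences (horizontal axes) of 9 fibroblast markers (vertical axis) in 3 comparisons of the injected groups; black points with bars are estimates with 95% intervals from limma, orange circles the difference inside experiment 9 and blue squares that inside experiment 1. Every interval includes 0 except that of Ddr2 for vesicles against control, 0.011 to 0.43, which did not pass after adjustment. In all 3 comparisons Dpt and Thy1 lie on opposite sides of 0 in the 2 experiments. Other markers, such as Meox1 and Ddr2 after cells, do so in some comparisons.

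Vesicles were also set directly against cells, where 46.8% of all genes had a higher fitted value after vesicles. Of the 9 markers 6 had a higher fitted value after vesicles, the median difference was 0.047 against −7.0e-04 over all genes, and 0 passed (limma adjusted p from 0.920 to 1; 0 of 30142 genes called, or 0%, and 1309 at an unadjusted p under 0.05; 0 called by least squares without moderation). Cd248 (0.16 ± 0.062, 95% interval −4.6e-04 to 0.32) and Ddr2 (0.13 ± 0.073, −0.051 to 0.32) were the 2 markers whose vesicle arrays all read above the cell arrays of the same experiment. Without cell array 1 the Ddr2 difference was 0.046, and without cell array 2 that of Cd248 was 0.10. That pattern held for 4.38% of all genes, and the opposite pattern for 5.71% of all genes and 0 markers. Meox1 was 0.16 ± 0.17, with 0.58 in experiment 9 and −0.056 in experiment 1, and −0.036 without cell array 1. Without that array the median over the markers was −0.030, and the markers with a higher fitted value were 4 of 9. The intervals of Dpt (−0.32 to 0.29), Pi16 (−0.17 to 0.21) and Gsn (−0.088 to 0.20) leave room for differences in either direction.

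For Meox1, Cd248 and Thy1 the fitted difference between the experiments was larger in size than that of either treatment from control, and for the other 6 markers it was smaller than the larger of these. Cd248 was lower in experiment 9 by a fitted −0.31 ± 0.056 (95% interval −0.45 to −0.17) and Meox1 by −0.57 ± 0.16 (−0.97 to −0.17), the first being 0.81-fold. Neither passed in limma (adjusted p = 0.255 and 0.329, unadjusted 0.00244 and 0.0141), and limma called 0 of 30142 genes, or 0%, with 3845 at an unadjusted p under 0.05 and 2 called by least squares without moderation. For Cd248 the 3 injected hearts of experiment 9 read 7.47 to 7.60 and the 5 of experiment 1 read 7.66 to 7.999, with no overlap, and the sham heart of experiment 9 at 7.54 fell with the former. Over the 8 injected hearts, Cd248 and Thy1 were the 2 markers with every array of experiment 9 below every array of experiment 1, which held for 2.74% of all genes; the reverse held for 0 markers and 4.18% of genes. On the sham array Thy1 had the same value as 3 arrays of experiment 1. For Meox1 the experiments overlapped at control array 2 (7.39) and vesicle array 1 (7.41), and the difference moved between −0.72 for Meox1 without vesicle array 1 and −0.36 without cell array 1. Ddr2 (0.024 ± 0.066), Dpt (−0.046 ± 0.11), Tcf21 (−0.024 ± 0.032) and Pi16 (−0.049 ± 0.067) had errors wider than their differences.

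Other gene lists were read over the same split, and 0 genes of any list passed. In experiment 9, 19 of 19 measured genes of the activated fibroblast list had lower fitted values, with a median of −0.36, and Acta2, smooth muscle actin of the myofibroblast, stood at −0.88 ± 0.12 (limma adjusted p = 0.213). The resident fibroblast list had 16 of 19 lower (median −0.14), the macrophage list 8 of 8 (median −0.26) and the mesothelial list 8 of 8 (median −0.14), whereas the heart muscle list had 7 of 7 higher (median 0.075). The T lymphocyte list had 7 of 7 lower (median −0.083), the nerve list 5 of 5 (−0.056) and the lung list 7 of 8 (−0.37). Of the adipocyte list 5 of 7 were lower (−0.054), of the mural list 4 of 8 (0.0039) and of the endothelial list 2 of 7 (0.023). By their means, 3 of 8 macrophage and 1 of 7 adipocyte genes lay above the negative controls. None of the mesothelial, T lymphocyte, nerve and lung genes did. Over all genes 41.6% were higher and the median was −0.010. The labels do not say what an experiment number stands for, and the part of these lists in the Cd248 and Meox1 differences was not tested.

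**Figure D3:**
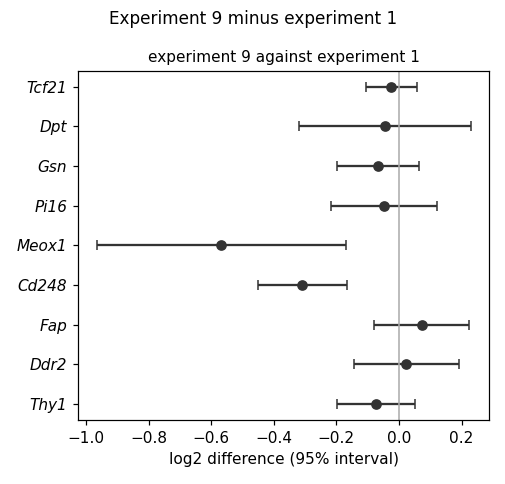
Fitted log2 difference between experiment 9 and experiment 1 (horizontal axis, 95% intervals from limma) for 9 fibroblast markers (vertical axis), over 8 injected hearts. Meox1 at −0.57 and Cd248 at −0.31 lie below 0 with their whole interval, and the other 7 intervals include 0.

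The sham heart could be set by value alone against control array 1 of the same experiment, with 1 array each. It read higher for 8 of 9 markers, with a median difference of 0.12, whereas 38.8% of all genes were higher and their median was 0. Meox1 was higher by 0.45, Pi16 by 0.23, Tcf21 by 0.20 and Gsn by 0.20, while Dpt stood at −0.092. For Meox1, control array 1 was under the negative controls, so the size of that gap is uncertain. Of the other 8 arrays, 3 read below the sham array for Meox1, Dpt and Thy1, 2 for Cd248 and 5 for Ddr2. For Gsn, Pi16 and Fap, 7 did. Tcf21 was highest on the sham array of all 9 arrays. Of the activated fibroblast list 18 of 19 genes were also higher on the sham array (median 0.54), as were 16 of 19 of the resident list (0.13), 8 of 8 macrophage genes (0.17) and 7 of 8 mesothelial genes (0.16). Endothelial genes were higher in 0 of 7 (median −0.11) and heart muscle genes in 1 of 7 (−0.037). Lung genes, all under the negative controls by their mean, were higher in 5 of 8 (0.093). Among them Sftpc read 6.35 on the sham array and 4.51 on control array 1. There is no replicate of the sham heart, so these values have no error.

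Other fibroblast genes were taken from lists set by name. Of the resident list, 19 of 20 were measured, and after vesicles 16 were higher and 3 lower than control, with a median of 0.10 and 0 passing in either direction. Lum, a collagen-binding proteoglycan, stood at 0.21 ± 0.069, Serpinf1, the secreted factor PEDF, at 0.19 ± 0.063, and Ebf2, a transcription factor of mesenchymal precursors, at 0.089 ± 0.030 (limma adjusted p = 0.675 for each). Ebf2 lay under the negative controls by its mean, 1 of 3 such genes among these 19. Without control array 2 the value of Lum was 0.14, and without vesicle array 1 that of Ebf2 was 0.056. After cells 8 were higher and 11 lower (median −0.019, 0 passing), with Ebf2 at 0.050 ± 0.030 and Htra3, a secreted serine protease, at 0.086 ± 0.073, or 0.019 without cell array 3. Of the activated list, also 19 of 20 measured and 11 above the negative controls by their mean, 14 were higher and 5 lower after vesicles (median 0.10, 0 passing), and 7 higher and 12 lower after cells (median −0.046, 0 passing). Postn, the matricellular protein periostin, read 8.92 and 9.52 on control arrays 1 and 2, 9.54, 9.78 and 9.72 on vesicle arrays 1, 2 and 3, 8.97, 9.20 and 9.47 on cell arrays 1, 2 and 3, and 9.92 on the sham array. Its vesicle arrays lay above every control and cell array, by 0.02 for vesicle array 1 over control array 2, and below the sham array. How many of all genes show that order was not counted. The Postn difference from control was 0.40 ± 0.12 (limma adjusted p = 0.675), with 0.25 without control array 1 and 0.57 without control array 2. Acta2 was 0.42 ± 0.16 and Il11, a profibrotic cytokine, −0.050 ± 0.024 after vesicles, and Cthrc1, a secreted protein of activated fibroblasts, −0.10 ± 0.043 after cells. Il11 and Cthrc1 lay under the negative controls, and their values were −0.0077 without control array 2 and −0.047 without cell array 1.

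Ligands of the platelet-derived growth factor family and the partner of the unread Pdgfra were measured. Pdgfrb, the beta receptor carried by mural cells and fibroblasts, read 8.84 and 8.74 on control arrays 1 and 2, 9.06, 9.04 and 8.91 on vesicle arrays 1, 2 and 3, and 8.77, 8.86 and 8.89 on cell arrays 1, 2 and 3. The 3 vesicle arrays were the highest, an order whose share among all genes was not counted. The difference from control was 0.22 ± 0.065 after vesicles (limma adjusted p = 0.675) and 0.050 ± 0.065 after cells. The ligand Pdgfb stood at 0.084 ± 0.060, Pdgfd at 0.043 ± 0.058, Pdgfc at 0.022 ± 0.026 and Pdgfa at −0.0015 ± 0.014 after vesicles, and the receptor-like Pdgfrl at 0.089 ± 0.059. Pdgfc and Pdgfrl were the 2 of these 6 genes under the negative controls by their mean. Without vesicle array 1, Pdgfb was at 0.023 and Pdgfrl at 0.026. Of these 6 genes 5 were higher after vesicles and 4 after cells, with 0 passing in either direction. After cells Pdgfc stood at 0.052 ± 0.026 and Pdgfrl at −0.078 ± 0.059, or 0.023 without control array 1 and −0.023 without cell array 1.

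Relatives of the markers in the same protein families were measured for 17 of 17 genes, with 10 higher after vesicles, 6 after cells and 0 passing, and 6 of them lay above the negative controls by their mean. All of the relatives named here lay under it. Meox2, the paralogue of Meox1 found in vessels, stood at 0.22 ± 0.11 after vesicles and 0.15 ± 0.11 after cells, and at 0.21 ± 0.087 between experiment 9 and experiment 1, where Meox1 was −0.57. Inside the experiments Meox2 after vesicles was 0.010 in experiment 9 and 0.39 in experiment 1. After cells it was −0.11 and 0.35, with the direction reversed. Ddr1, the epithelial collagen receptor, was −0.019 ± 0.027 after vesicles. Dpp4, the relative of Fap, was 0.055 ± 0.099. Among gelsolin relatives Capg, an actin-capping protein of macrophages, was −0.11 ± 0.029 after cells and Avil and Vil1 were −0.048 ± 0.021 and −0.046 ± 0.022 after vesicles, and Crispld1, of the family of Pi16, was −0.11 ± 0.026 after cells. Without control array 2, Avil and Vil1 were both −0.016 and Capg was −0.069. None of these treatment differences passed (limma adjusted p from 0.675 to 0.918), nor did that of Meox2 between experiments (0.403).

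Markers of other cells were read beside the vesicle comparison. The mural list had 6 of 8 genes higher than control (median 0.091), the endothelial list 7 of 7 (0.043), the mesothelial list 8 of 8 (0.088), the macrophage list 6 of 8 (0.027) and the heart muscle list 4 of 7 (0.012). The mesothelial mean differed from its own control by 0.025, 0.077 and 0.38 on vesicle arrays 1, 2 and 3. It was thus widest on the array with lung transcripts. The T lymphocyte list had 0 of 7 (−0.091), the nerve list 1 of 5 (−0.059), the adipocyte list 3 of 7 (−0.017) and the lung list 7 of 8 (0.54). Of the 9 arrays, control array 2 had the highest T lymphocyte mean and the highest nerve mean. The T lymphocyte mean differed from its own control by 0.023, −0.21 and −0.20 on vesicle arrays 1, 2 and 3. In these 9 lists 0 genes passed, and 39.6% of all genes were higher after vesicles. After cells, read against the same control arrays, 44.2% of all genes were higher. The endothelial list then had 7 of 7 higher (median 0.080), and the mural and mesothelial lists each had 6 of 8. The T lymphocyte list had 0 of 7, the nerve list 0 of 5, the macrophage list 2 of 8 and the lung list 1 of 8 higher after cells. The heart muscle list had 5 of 7 and the adipocyte list 3 of 7. Mural means lay between 8.96 and 9.07 on the control arrays, 8.99 and 9.17 on the vesicle arrays and 8.99 and 9.09 on the cell arrays. None of the 8 mesothelial, 7 T lymphocyte, 5 nerve and 8 lung genes measured had a mean above the negative controls, and 1 of 7 adipocyte and 3 of 8 macrophage genes did. The part of these lists in the marker differences was not tested. Without vesicle array 3, the array with lung transcripts, 9 of 9 markers were higher than control, with a median of 0.095.

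**Figure D4:**
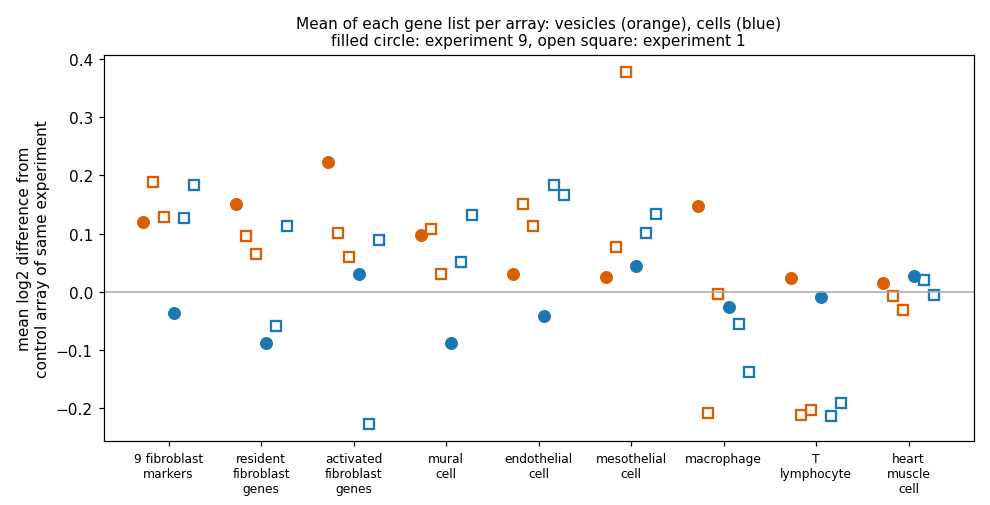
Mean log2 difference of each gene list from the control array of the same experiment (vertical axis) for the 9 fibroblast markers and 8 lists (horizontal axis); orange symbols are vesicle arrays, blue symbols cell arrays, filled circles experiment 9 and open squares experiment 1. For the 9 markers the vesicle arrays lie at 0.12, 0.19 and 0.13, and the cell arrays at −0.037, 0.13 and 0.18.

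Genes whose pattern over the 9 arrays was most like each marker were picked as the highest Pearson correlations among 4813 protein-coding genes with a mean above the negative controls. Being picked from so many over 9 arrays that share treatment and experiment, they are given as a description with no p. Those of Meox1 were Rhoc (r = 0.97), a small GTPase of the cytoskeleton, and Fbln5 (0.96) and Mfap4 (0.93), proteins of elastic fibres. For Cd248 they were Stab1 (0.95), a scavenger receptor, Cmip (0.95) and Mmp14 (0.92), a membrane-bound matrix protease, and for Gsn they were Creb3l2 (0.93), a secretory pathway factor, Ddah1 (0.89) and Mmp2 (0.88), a gelatinase. Those of Pi16 were Ybx3 (0.94), Prob1 (0.92) and Ace (0.91), and those of Tcf21 Gm4788 (0.96), Cd63 (0.87) and Arpc2 (0.86). Dpt went with Psd3 (0.94), Zfp146 (0.93) and Cnot6 (0.93), Ddr2 with Csnk1g3 (0.96), Lrch3 (0.95) and Prpf38b (0.95), and Fap with Purb (0.95), Exoc5 (0.95) and Zfp638 (0.94). The nearest genes of Thy1, Ranbp10 (0.99), Xirp1 (0.98), a muscle actin-binding protein, and Crtc3 (0.97), follow a marker that was high on cell array 3 alone.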

How the data were processed

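The data are 9 arrays of whole-heart RNA extracted with Trizol and biotin-labelled by an Affymetrix whole-transcript assay, per the labels' protocols. The deposited table holds 1 value per probe set and array for 80202 probe sets, read as log2 expression normalized by the authors, because values are never negative and array medians over genes lie between 5.56 and 5.63. How the authors corrected background, summarised probes and normalized was not given in the sources used; Partek is named in the submitters' processing notes without role. A shift shared by most genes would be lost in such values. Arrays have no read depth, and their number limits precision.

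Probe sets were named from the platform table (30604 with 1 symbol, 2146 with several, not used), symbols were updated through Entrez numbers with RefSeq (GRCm38.p6), and each gene was read from its probe set of highest mean, leaving 30142 genes. lmFit and eBayes in limma 3.58.1 (R 4.3.3) were fitted to the 8 arrays of injected hearts, with a mean for each treatment and experiment as fixed block (4 residual and 1.18 prior degrees of freedom). Tests were two-sided, Benjamini-Hochberg adjusted over all 30142 genes and called under 0.05. Errors after ± are SE. Differences inside an experiment use its own control array or its mean over cell arrays. The sham array was outside the fit.

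The markers and lists were chosen with earlier results of these data known. Named list genes are those with the lowest unadjusted p, up to 3 per list after vesicles and 2 after cells; Pdgfa, Pdgfd, Meox2, Ddr1 and Dpp4, and single genes shown for an array or for the experiment, were added after their values were seen. The fit was tested on simulated data. Array numbers only name arrays. Alternatives changed the block, normalization, filter, probe set rule, variance model and arrays.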

Additional observations from a re-analysis of the deposited data

Results flagged for a closer look

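The 9 markers were searched after vesicles and after cells for a reversal between experiments. In 5 results the treated array of experiment 9 lay on one side of its control and those of experiment 1 on the other. The share of all genes with this pattern was not counted, so these 5 are not read as a trait of the markers. The difference between the experiments' effects is given as experiment 9 minus experiment 1. For Dpt it was −0.41 after vesicles (−0.11 and 0.30) and −0.62 after cells (−0.23 and 0.39), the second being the widest gap among these 5. After cells it was −0.50 for Meox1 (−0.12, from 2 arrays under the negative controls, and 0.38) and −0.37 for Ddr2 (−0.13 and 0.24). For Thy1 after vesicles it was 0.041 (0.023 and −0.018), in a gene under the negative controls. Limma's test of these differences did not pass, with adjusted p of 0.0735 and 0.0802 for Dpt, 0.605 for Meox1, 0.0802 for Ddr2 and 0.987 for Thy1. It called 0 genes in either comparison, while 5457 genes after vesicles and 5666 after cells had an unadjusted p under 0.05; its spread comes from 2 residual degrees of freedom, and tied values narrow it. Experiment 9 gives 1 array per treatment to each of these values, and both the vesicle and the cell effects of experiment 1 are read against the same control array 2. No group had more than 3 arrays, so single arrays were not screened as outliers.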

How the results depend on the processing

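No marker passed in any of the 17 alternatives to a treatment comparison or the 15 to that of the experiments. Of 590 marker results under these alternatives 578 kept their sign or changed it by a move under 1 standard error, and 12 changed sign by a larger move. When the sham array joined the controls, Tcf21 after cells was −0.034 and Pdgfc after cells −0.0010, and 1 gene was called after cells. With arrays centred on their median, Tcf21 between experiments was 0.0086. Least squares without moderation called 4 genes for vesicles against control and 2 between experiments. Leaving out 1 array at a time gave 0 to 823 calls for vesicles against control and 0 to 901 for cells against control. The highest were both without control array 1. With either control array left out, the single control left borrows the spread of the other groups. The fit without control array 2 nevertheless lay at the low end of both ranges, and why the 2 fits differ was not tested. The same leave-outs gave −0.17 to 0.34 for Dpt and −0.019 to 0.10 for Pi16 after vesicles, −0.16 to 0.35 for Dpt and −0.067 to 0.21 for Ddr2 after cells, and −7.0e-04 to 0.10 for Gsn, −0.036 to 0.32 for Meox1 and −0.091 to 0.0098 for Thy1 between vesicles and cells. Between experiments they gave −0.19 to 0.093 for Dpt and −0.053 to 0.12 for Ddr2. The median over the markers for vesicles against cells ran from −0.030 to 0.076. The cause of these moves was not tested. The titles give every array the same replicate number, so that number pairs no arrays. The VTS number in the titles could serve as a block, and with it 0 genes were called in each treatment comparison and no marker changed sign; the median over the markers was 0.082 after vesicles and 0.072 after cells.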
